A study of Mus musculus with 36 samples.

Results

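Liver breaks down most amino acids of the diet and turns the nitrogen they release into urea. The 53 genes described here encode enzymes of that work, and they were taken as every feature whose gene name in the scanner files is on a fixed list of amino acid catabolism and urea cycle enzymes. They were 53 of the 22916 genes and other features measured. Each gene was read by its brightest probe among those well above background on at least 6 of 36 arrays, and all 53 were well above background on every array. The livers came from male C57BL/6J mice of 11 weeks with free access to chow, 1 array per sample. IRLKO mice, called knockout here, had lost the insulin receptor gene Insr from hepatocytes by a tamoxifen-inducible Cre under the transthyretin promoter, acting on loxP sites around an exon of Insr. IRLWT mice, called control, kept Insr. The labels record no treatment, and give neither the time of tamoxifen nor whether control mice carried Cre. Livers were taken at ZT8, ZT12 or ZT16, hours of Zeitgeber time (ZT) counted from lights-on, and darkness began at ZT12. There were 6 samples of each genotype at each time, 6 groups in all.

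In the urea cycle, ammonia and aspartate nitrogen are joined to ornithine and released as urea, in mitochondria and cytosol of the hepatocytes around the portal vein, while hepatocytes around the central vein take up remaining ammonia as glutamine. Carbon skeletons of the amino acids go to glucose, ketone bodies or oxidation, so these routes are known to be turned up in fasting by glucagon and glucocorticoids and held down by insulin. Serine dehydratase, tyrosine aminotransferase and tryptophan dioxygenase are classical examples of liver enzymes that hormones and feeding control.

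Values are log2 signal minus the 75th percentile of the array, so a difference of 1 is 2-fold. A gene is called higher or lower where limma's moderated test gave a Benjamini-Hochberg adjusted p under 0.05 over all 22916 features. Across arrays the 75th percentile signal ran from 311 to 525 intensity units, 53.7% to 63.1% of spots were well above background and none was saturated. Insr was read at -1.80, -1.38 and -1.0 (lowest, median and highest of 6 arrays) in ZT8 controls and at -3.53, -3.03 and -2.93 in ZT8 knockouts. It was called lower at all 3 times, at 29.2%, 27.2% and 31.7% of control (limma adjusted p up to 2.81e-11), although its probe may lie outside the deleted exon. The ZT8 knockout library of replicate 3 stood apart from its group over all features, where its score on principal component 2 was 3.03 and those of its 5 group mates ran from 29.1 to 45.9. Over the members it lay outside the range of its group mates for 33 of 53, and replicate 1 of the same group did so for 43, so this count does not set it apart. Calls at ZT8 and in the test of genotype by time that changed without this library are given beside the results. Whole liver holds several cell types, and fewer cells of a type cannot be told apart from less RNA per cell.

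The probes show which stretch of each transcript was measured. The 6 members that open or close a route, or that stand for a result below, are printed from the array annotation in the files (build mm9), 5′ to 3′ in lower case, with no base singled out. The Hpd and Fah probes lie over 2124 and 817 bases of genome, so their 60 bases join separate genomic blocks.
Cps1, chr1:67276029-67276088, plus strand: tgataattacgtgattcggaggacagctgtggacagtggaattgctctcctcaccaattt
Arg1, chr10:24636194-24636253, minus strand: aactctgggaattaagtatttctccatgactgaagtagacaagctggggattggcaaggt
Tdo2, chr3:81765359-81765418, minus strand: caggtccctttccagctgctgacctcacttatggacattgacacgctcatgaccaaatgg
Hpd, chr5:123622237-123624360, minus strand: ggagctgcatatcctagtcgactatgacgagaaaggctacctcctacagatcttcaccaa
Fah, chr7:91740916-91741732, minus strand: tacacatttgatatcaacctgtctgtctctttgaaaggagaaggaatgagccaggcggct
Sds, chr5:120933105-120933164, plus strand: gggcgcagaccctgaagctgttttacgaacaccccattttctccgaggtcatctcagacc
Cps1 opens the urea cycle and was not called at any time, Arg1 closes it and was lower in knockouts at every time. Tdo2 opens tryptophan breakdown and was lower, Hpd and Fah are an early and the last step of tyrosine breakdown and differed in opposite directions, and Sds had the largest mean rise of the 53. An annotation of build mm9 was not used here, so exons and untranslated regions are not assigned.

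Most members differed between genotypes, and more were lower than higher in knockouts. At ZT8, 30 of 53 were called, 10 higher and 20 lower, against 35.6% of all features (16.6% higher and 19.0% lower). At ZT12, 33 were called, 11 higher and 22 lower, against 42.2% of all (19.7% higher and 22.5% lower). At ZT16, 35 were called, 13 higher and 22 lower, against 39.9% (19.7% and 20.3%). The members are bright on the array, with 48 of 53 in the brightest 25% of features, where calls were more frequent. Among those 5729 bright features 46.9%, 54.9% and 51.6% were called at ZT8, ZT12 and ZT16. Of the bright features 29.2%, 36.3% and 33.4% were called lower and 17.7%, 18.6% and 18.2% higher. The members' shares of 56.6%, 62.3% and 66.0% therefore stand closer to those of bright features than to those of all. At ZT8, ZT12 and ZT16 the members' median log2 differences were -0.17, -0.16 and -0.20, against 0.0043, -0.016 and -0.00083 over all features. No median was taken over bright features alone, where lower calls also outnumbered higher ones.

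The set split into members that differed at all times and members that differed at some. Lower at all 3 times were 14 of 53 (26.4%, against 10.8% of all features and 19.7% of bright features): Agxt2, Aldh6a1, Arg1, Bckdha, Fah, Gcsh, Glud1, Gpt, Haao, Kmo, Pcca, Prodh, Prodh2 and Tdo2. Higher at all 3 times were Gls2, Hpd, Mat1a and Sdsl, 7.55% of members against 8.82% of all features and 9.77% of bright features. Called at no time were 7, or 13.2% against 39.6% of all and 27.7% of bright features: Aldh4a1, Ass1, Bcat2, Cps1, Gnmt, Ivd and Otc, of which Bcat2 was called lower at ZT8 without ZT8 knockout replicate 3 (log2 -0.34, limma adjusted p = 0.0277, against -0.25 and 0.121 with it). The place of Ivd in this list rests on its brightest probe, since its dimmest probe was called lower at ZT8 and ZT16. Amt was called in opposite directions at different times, and the other 27 were called at some times in 1 direction. Groups did not overlap for 15 members at ZT8, 17 at ZT12 and 27 at ZT16, against 15.5%, 21.3% and 19.3% of all features. Within each of the 3 wash batches, all of which hold all 6 groups, the sign was the same for 28 of the 30 members called at ZT8 (not Gpt and Mccc2), 30 of 33 at ZT12 (not Sdsl, Mat1a and Aass) and 35 of 35 at ZT16.

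**Figure D1:**
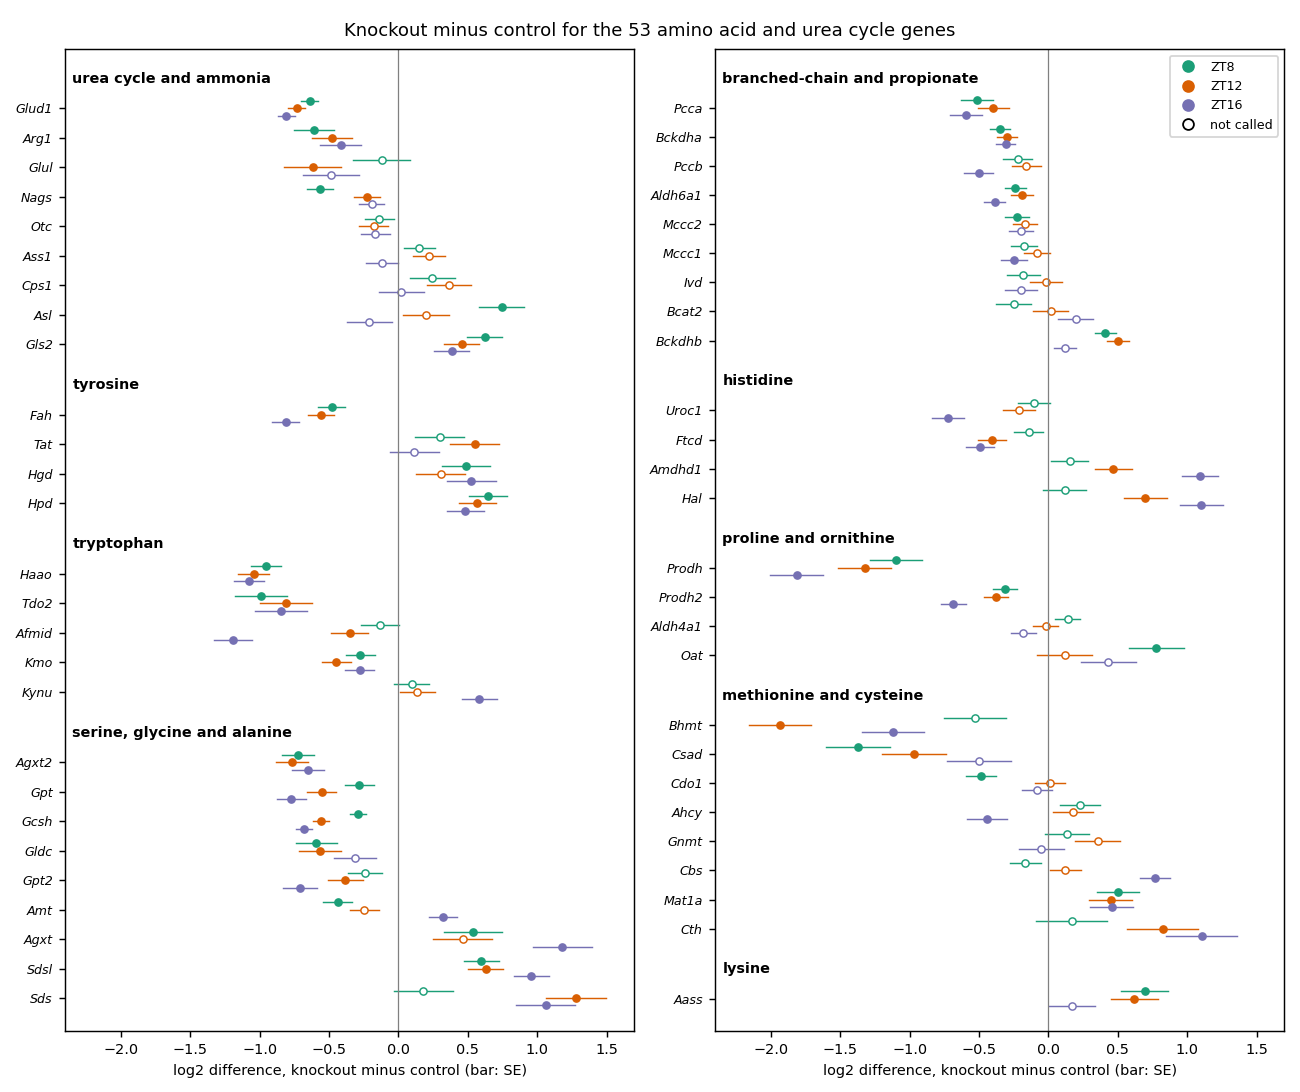
Log2 difference, knockout minus control, of the 53 members (rows, grouped by route) at ZT8, ZT12 and ZT16 (colours); bars are SE, filled points were called and open points were not. Prodh, Haao, Tdo2 and Glud1 lie left of 0 at every time, Gls2, Hpd, Mat1a and Sdsl right of it, and Hal, Amdhd1 and Cbs move rightward from ZT8 to ZT16.

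In the urea cycle and ammonia group, 2, 1 and 1 of 9 members were higher and 3, 4 and 2 lower at ZT8, ZT12 and ZT16. These and the route counts below stand beside 16.6%, 19.7% and 19.7% of all features higher and 19.0%, 22.5% and 20.3% lower. Of bright features 17.7%, 18.6% and 18.2% were higher and 29.2%, 36.3% and 33.4% lower. Each route holds few members, and no route was tested as a set. Glud1, glutamate dehydrogenase, releases ammonia from glutamate. In controls its lowest, median and highest values were 7.59, 7.72 and 7.76 at ZT8, 7.56, 7.66 and 7.67 at ZT12, and 7.58, 7.65 and 7.71 at ZT16. Knockout arrays read 6.82, 7.05 and 7.26 at ZT8, 6.80, 6.92 and 7.04 at ZT12, and 6.67, 6.83 and 6.99 at ZT16. The genotypes did not overlap at any time, and Glud1 was at 64.2% of control at ZT8, 60.2% at ZT12 and 57.1% at ZT16 (log2 differences -0.64 at ZT8, -0.73 at ZT12 and -0.81 at ZT16, each SE 0.06; limma adjusted p = 1.90e-09, 1.09e-10 and 1.14e-11). Of 2 dimmer Glud1 probes, that at chr14:35151947-35152006, plus strand, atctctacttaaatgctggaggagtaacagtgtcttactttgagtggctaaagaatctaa, differed by -0.94, -0.83 and -1.1 at the 3 times. The dimmest was at -0.14 at ZT8, not called, and at -0.48 and -0.48 at ZT12 and ZT16, both called. Gls2, the liver glutaminase, releases ammonia from glutamine and went the other way. Controls read 5.74, 5.96 and 6.00 at ZT8, 5.76, 5.97 and 6.31 at ZT12, and 5.77, 6.11 and 6.23 at ZT16, and knockouts 6.33, 6.48 and 6.93 at ZT8, 6.09, 6.37 and 6.91 at ZT12, and 6.15, 6.46 and 6.87 at ZT16. Groups were apart at ZT8 and overlapped at ZT12 and ZT16, with Gls2 called higher each time at 154% of control at ZT8, 137% at ZT12 and 130% at ZT16 (limma adjusted p = 0.000266, 0.00424 and 0.016). The ZT12 call was lost under quantile normalization, and the ZT16 call under that setting and when the probes of a gene were averaged. Nags makes N-acetylglutamate, the activator of carbamoyl phosphate synthesis. Its control values were 1.60, 1.76 and 1.96 at ZT8, 1.94, 2.02 and 2.22 at ZT12, and 2.18, 2.33 and 2.64 at ZT16. Its knockout values were 0.89, 1.26 and 1.52 at ZT8, 1.66, 1.84 and 1.96 at ZT12, and 1.87, 2.20 and 2.28 at ZT16. It was lower without overlap at ZT8, at 67.6% of control (log2 -0.56 (SE 0.09), limma adjusted p = 1.55e-05). It was also called lower at ZT12 (log2 -0.23, limma adjusted p = 0.048), and 8 of 12 other settings did not give that call.

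Arg1, arginase, splits arginine into urea and ornithine and was lower at all 3 times, at 65.5% of control at ZT8, 71.7% at ZT12 and 74.9% at ZT16 (log2 -0.61 at ZT8, -0.48 at ZT12 and -0.42 at ZT16; limma adjusted p = 0.00141, 0.0087 and 0.0223). Of the other cycle enzymes, the mitochondrial enzymes Cps1 and Otc and the cytosolic Ass1 were called at no time. Their log2 differences were 0.24 at ZT8, 0.36 at ZT12 and 0.02 at ZT16 for Cps1, -0.14 at ZT8, -0.18 at ZT12 and -0.17 at ZT16 for Otc and 0.15 at ZT8, 0.22 at ZT12 and -0.12 at ZT16 for Ass1. Asl, which splits argininosuccinate, was an exception. In controls it read 4.85, 5.14 and 5.37 at ZT8, 5.70, 5.96 and 6.28 at ZT12, and 6.14, 6.32 and 6.68 at ZT16, the largest change with time among the members called in controls. Knockout arrays of Asl read 5.67, 5.85 and 6.38 at ZT8, 5.68, 6.16 and 6.49 at ZT12, and 5.58, 6.15 and 6.85 at ZT16, so the genotypes were apart at ZT8 and overlapped later. Asl was called higher at ZT8 at 167% of control (log2 0.74 (SE 0.16), limma adjusted p = 0.000615) and was at 0.20 and -0.21 at ZT12 and ZT16, not called. A dimmer Asl probe disagreed, with -0.42, 0.95 and 0.41 at the 3 times, so the direction at ZT8 rests on the brighter probe. The dimmer probe was called at ZT12 alone (limma adjusted p = 0.000829). With probes averaged, Asl was called higher at ZT12 (limma adjusted p = 0.00565) and not at ZT8 (0.486). The time of the Asl difference thus also depends on the probe. Glul, glutamine synthetase of the hepatocytes around the central vein, was called lower at ZT12 (log2 -0.62 (SE 0.20), 65.2% of control, limma adjusted p = 0.0153). There knockout replicate 1 read 4.51, the other knockout arrays 5.59 to 5.89 and controls 5.98 to 6.23. The size of that mean difference thus rests in part on 1 array. At ZT16 knockout replicate 6 read 4.29, against 5.53 to 5.88 on the other knockout arrays. The Glul groups did not overlap at ZT16 but the log2 difference of -0.49 was not called (limma adjusted p = 0.057). Of its 2 dimmer probes, that at chr1:155755109-155755168, plus strand, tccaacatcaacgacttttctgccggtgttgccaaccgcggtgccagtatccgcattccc, was at -0.28, -0.64 and -0.76, and the other at -0.40, -0.73 and -0.93. Both were called lower at ZT12 and at ZT16 (limma adjusted p = 0.013 and 0.00846 at ZT16), and neither at ZT8. Beside this, 3, 3 and 4 of 6 other pericentral markers were lower at ZT8, ZT12 and ZT16 and Axin2 was higher at each, and the part of zonation in these differences was not tested.

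Of the 4 tyrosine members, 2 were higher and 1 lower at each time. Hpd was higher and Fah lower throughout, while Tat was called at ZT12 alone and Hgd at ZT8 and ZT16. Tat, tyrosine aminotransferase, starts tyrosine breakdown. Control values were 6.00, 6.56 and 6.90 at ZT8, 6.74, 7.26 and 7.56 at ZT12, and 7.36, 7.54 and 7.73 at ZT16, and knockout values 6.48, 6.91 and 7.12 at ZT8, 7.23, 7.71 and 8.34 at ZT12, and 7.33, 7.60 and 8.05 at ZT16. Tat was called higher at ZT12 alone, at 146% of control (log2 0.55 (SE 0.17), limma adjusted p = 0.0121), with overlapping groups, and quantile normalization or a fit of the ZT12 arrays alone did not give the call. The next enzyme, Hpd, hydroxyphenylpyruvate dioxygenase, read 6.74, 6.94 and 7.14 at ZT8, 6.67, 7.07 and 7.28 at ZT12, and 6.95, 7.25 and 7.33 at ZT16 in controls. Knockouts read 6.77, 7.66 and 8.02 at ZT8, 7.14, 7.62 and 7.82 at ZT12, and 7.40, 7.68 and 7.77 at ZT16. Hpd was higher at all times, at 156% of control at ZT8, 148% at ZT12 and 140% at ZT16 (limma adjusted p = 0.000391, 0.00117 and 0.00512), and without overlap at ZT16. Hgd, homogentisate dioxygenase, followed at 140% of control at ZT8, 123% at ZT12 and 144% at ZT16. A dimmer Hgd probe was called higher at every time (log2 0.76 at ZT8, 0.99 at ZT12 and 0.96 at ZT16; limma adjusted p up to 0.0066). The lack of an Hgd call at ZT12 thus rests on the brighter probe. Fah, fumarylacetoacetate hydrolase, is the last step, and its loss is the cause of a hereditary tyrosinemia. In controls it read 5.06, 5.27 and 5.39 at ZT8, 5.23, 5.37 and 5.52 at ZT12, and 5.38, 5.45 and 5.58 at ZT16. Fah in knockouts read 4.33, 4.78 and 5.19 at ZT8, 4.66, 4.84 and 4.96 at ZT12, and 4.41, 4.66 and 4.83 at ZT16, below every control array at ZT12 and ZT16. It was at 71.6% of control at ZT8, 67.9% at ZT12 and 56.9% at ZT16 (log2 -0.48 at ZT8, -0.56 at ZT12 and -0.81 at ZT16, each SE 0.10; limma adjusted p = 0.000215, 2.46e-05 and 6.24e-08).

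Transcripts of tryptophan breakdown along the kynurenine route were mostly lower in knockouts. Of 5 members, 3, 4 and 4 were lower and 0, 0 and 1 higher at ZT8, ZT12 and ZT16. Tdo2, tryptophan dioxygenase, opens the route. In controls it read 6.26, 6.48 and 6.74 at ZT8, 6.32, 6.41 and 6.93 at ZT12, and 6.15, 6.55 and 7.14 at ZT16. Its knockout values were 5.11, 5.42 and 6.16 at ZT8, 4.94, 5.82 and 6.14 at ZT12, and 5.54, 5.79 and 5.89 at ZT16, without overlap at any time. Tdo2 stood at 50.4% of control at ZT8, 57.1% at ZT12 and 55.6% at ZT16 (log2 -0.99 at ZT8, -0.81 at ZT12 and -0.85 at ZT16, each SE 0.19; limma adjusted p = 9.63e-05, 0.000773 and 0.000516). Haao, hydroxyanthranilate dioxygenase, leads toward quinolinate and NAD. Control arrays read 6.73, 6.86 and 7.10 at ZT8, 6.61, 6.85 and 7.15 at ZT12, and 6.69, 6.95 and 7.07 at ZT16. Knockout arrays read 5.29, 6.02 and 6.25 at ZT8, 5.64, 5.79 and 5.94 at ZT12, and 5.68, 5.84 and 5.99 at ZT16, again apart from controls at every time. Haao was at 51.5% of control at ZT8, 48.5% at ZT12 and 47.5% at ZT16 (log2 -0.96 at ZT8, -1.04 at ZT12 and -1.08 at ZT16; limma adjusted p = 3.98e-08, 5.90e-09 and 3.27e-09). A much dimmer Haao probe gave -0.84, -0.94 and 0.06, so it did not show the ZT16 difference. Kmo, kynurenine monooxygenase, was called lower at all times (-0.28 at ZT8, -0.45 at ZT12 and -0.28 at ZT16 on the log2 scale), and the ZT8 call was not given without ZT8 knockout replicate 3. Afmid, kynurenine formamidase, is the next enzyme after Tdo2. Its values were 2.29, 2.61 and 2.78 at ZT8, 2.69, 3.00 and 3.46 at ZT12, and 3.19, 3.46 and 3.74 at ZT16 in controls. They were 2.16, 2.48 and 2.82 at ZT8, 2.55, 2.70 and 2.92 at ZT12, and 2.09, 2.24 and 2.66 at ZT16 in knockouts. It was at -0.13 on the log2 scale at ZT8, not called, and was at 43.8% of control without overlap at ZT16 (log2 -1.19 (SE 0.14), limma adjusted p = 2.90e-08). The ZT12 call (log2 -0.35) was not given by 5 of 12 other settings. Kynu, kynureninase, was called at ZT16, where it was higher at 150% of control. A dimmer Kynu probe gave 0.25 there, not called (limma adjusted p = 0.138). Another, well above background on 7 of 36 arrays, gave 1.03 and was called (limma adjusted p = 0.0276).

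**Figure D2:**
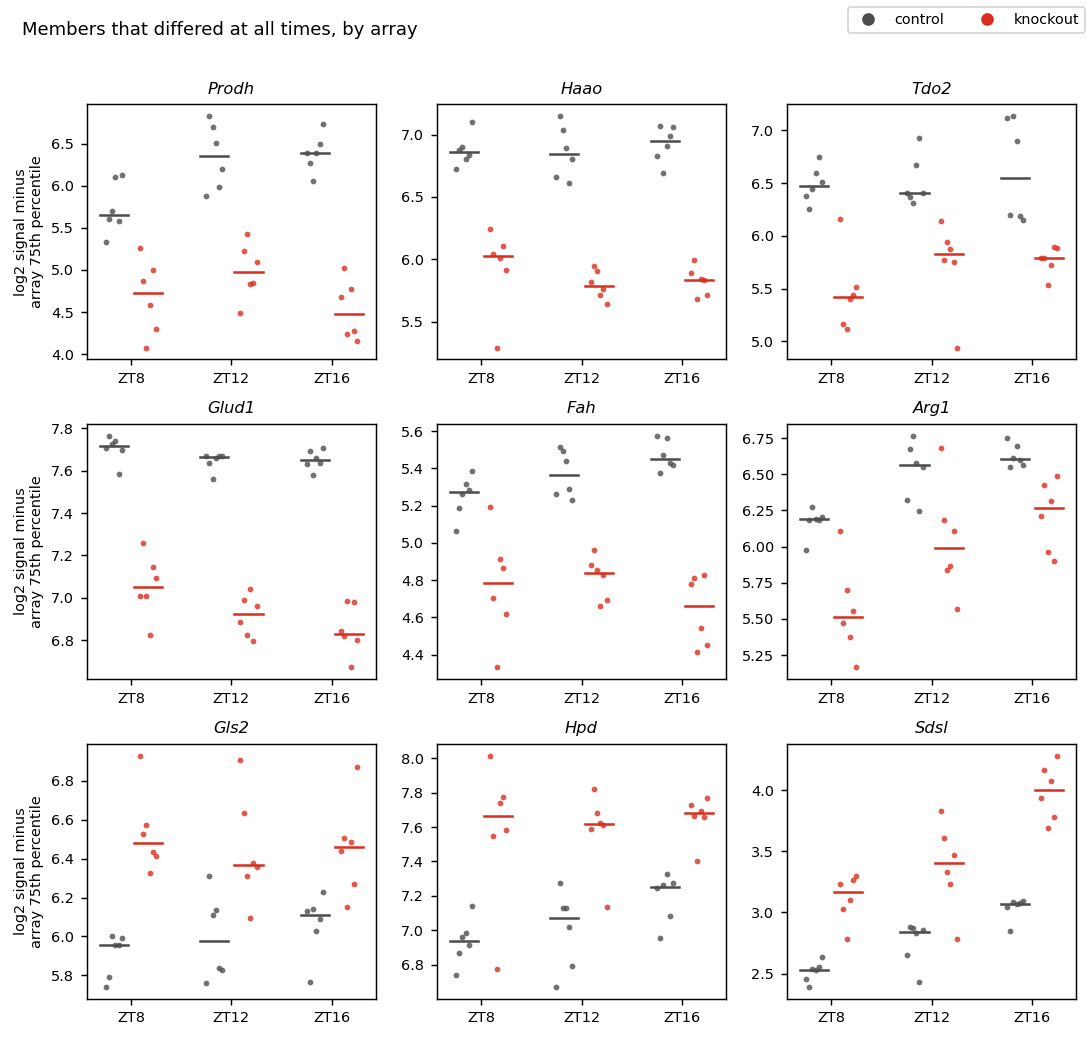
Log2 signal minus the array's 75th percentile for 9 members called in the same direction at all 3 times, each point 1 array, bars the median of 6 arrays, grey controls and red knockouts, with a separate axis for each gene. Knockout arrays of Prodh, Haao, Tdo2 and Glud1 lie below all control arrays at each time, while Gls2, Hpd and Sdsl lie mostly above.

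Serine, glycine and alanine enzymes went in both directions, with 2, 2 and 4 of 9 higher and 5, 5 and 4 lower at the 3 times. Sds, serine dehydratase, turns serine into pyruvate and ammonia. In controls it read 3.65, 4.23 and 4.58 at ZT8, 3.56, 4.23 and 4.63 at ZT12, and 3.84, 4.60 and 4.78 at ZT16. Its knockout arrays read 3.88, 4.36 and 4.88 at ZT8, 4.86, 5.19 and 6.32 at ZT12, and 5.20, 5.58 and 5.78 at ZT16, so that groups overlapped at ZT8 and were apart at ZT12 and ZT16. It was at 113% of control at ZT8, 243% at ZT12 and 208% at ZT16 (log2 0.18 at ZT8, 1.28 at ZT12 and 1.06 at ZT16, each SE 0.21; limma adjusted p = 0.552, 1.72e-05 and 0.000217). Sdsl, the serine dehydratase-like gene, lies next to Sds on chromosome 5 with no coding gene between them. Its control values were 2.39, 2.53 and 2.64 at ZT8, 2.43, 2.84 and 2.88 at ZT12, and 2.85, 3.07 and 3.09 at ZT16. Its knockout values were 2.78, 3.17 and 3.30 at ZT8, 2.78, 3.40 and 3.83 at ZT12, and 3.69, 4.00 and 4.28 at ZT16, apart at ZT8 and ZT16. Sdsl was called higher at all 3 times, at 151% of control at ZT8, 155% at ZT12 and 194% at ZT16 (limma adjusted p = 0.000403, 0.000176 and 4.37e-07). Agxt, peroxisomal alanine-glyoxylate aminotransferase, detoxifies glyoxylate. It read 7.15, 7.30 and 7.44 at ZT8, 6.33, 6.56 and 6.74 at ZT12, and 5.86, 6.30 and 6.52 at ZT16 in controls. Knockouts read 7.59, 7.87 and 8.05 at ZT8, 6.51, 6.89 and 7.95 at ZT12, and 6.77, 7.30 and 8.75 at ZT16, and groups were apart at ZT8 and ZT16. Agxt was higher at ZT16 at 226% of control (log2 1.18 (SE 0.21), limma adjusted p = 4.78e-05), and at ZT8 at 145% (limma adjusted p = 0.0476), a call that 4 of 12 other settings, among them the fit without ZT8 knockout replicate 3 (limma adjusted p = 0.0603), did not give.

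Transcripts of the glycine cleavage system, which releases carbon dioxide and ammonia from glycine, were mostly lower. Gcsh, its lipoyl-carrying H protein, read 5.12, 5.17 and 5.23 at ZT8, 5.12, 5.21 and 5.29 at ZT12, and 5.01, 5.11 and 5.29 at ZT16 in controls. In knockouts it read 4.74, 4.89 and 5.08 at ZT8, 4.55, 4.66 and 4.71 at ZT12, and 4.32, 4.45 and 4.49 at ZT16, with no overlap at any time. It stood at 81.8% of control at ZT8, 67.9% at ZT12 and 62.4% at ZT16 (log2 -0.29 at ZT8, -0.56 at ZT12 and -0.68 at ZT16, each SE 0.06; limma adjusted p = 0.000142, 3.27e-09 and 5.41e-11). Gldc, the decarboxylating P protein, was called lower at ZT8 and ZT12 (log2 -0.59 and -0.57), and at ZT16 was at -0.31, with groups apart but not called. Amt, the aminomethyltransferase T protein, changed direction. Control values were 0.60, 0.80 and 1.01 at ZT8, -0.40, -0.26 and 0.24 at ZT12, and -0.14, 0.06 and 0.47 at ZT16. Knockout values were 0.09, 0.43 and 0.74 at ZT8, -0.82, -0.48 and -0.11 at ZT12, and 0.21, 0.33 and 0.59 at ZT16. Amt was called lower at ZT8 (log2 -0.44 (SE 0.10), limma adjusted p = 0.00128) and higher at ZT16 (0.32 (SE 0.10), limma adjusted p = 0.014), with overlapping groups at all times. The ZT16 call was lost in the fit without wash batch and in the fit of the ZT16 arrays alone. At ZT12 Amt was at -0.25, not called (limma adjusted p = 0.0538), and 8 of 12 other settings, the fit without ZT8 knockout replicate 3 among them, called it lower there. Among aminotransferases of alanine, cytosolic Gpt read 6.83, 6.93 and 7.14 at ZT8, 7.0, 7.21 and 7.37 at ZT12, and 7.15, 7.31 and 7.40 at ZT16 in controls. Knockouts read 6.41, 6.57 and 7.09 at ZT8, 6.32, 6.68 and 6.82 at ZT12, and 6.25, 6.53 and 6.73 at ZT16, apart from controls at ZT12 and ZT16. Gpt was at 82.2% of control at ZT8, 68.1% at ZT12 and 58.6% at ZT16 (limma adjusted p = 0.0349, 8.85e-05 and 7.35e-07), and its ZT8 call was lost in 5 of 12 other settings, among them the fit without ZT8 knockout replicate 3. Mitochondrial Gpt2 followed at 84.6% of control at ZT8, 76.7% at ZT12 and 61.1% at ZT16, called at ZT12 and ZT16. Agxt2, a mitochondrial aminotransferase that also acts on dimethylarginines, was lower without overlap at all times (log2 -0.72 at ZT8, -0.77 at ZT12 and -0.65 at ZT16; limma adjusted p = 1.13e-05, 3.69e-06 and 3.99e-05).

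Branched-chain and propionate enzymes showed small differences, most of them downward, with 1, 1 and 0 of 9 higher and 4, 3 and 5 lower at ZT8, ZT12 and ZT16. The decarboxylase of the branched-chain ketoacid dehydrogenase is built of alpha and beta subunits, and these went in opposite directions. Bckdha, the alpha subunit, was lower without overlap at all times, at 78.5% of control at ZT8, 81.4% at ZT12 and 80.7% at ZT16 (limma adjusted p = 0.000272, 0.00124 and 0.000865). Bckdhb, the beta subunit, read 5.13, 5.29 and 5.36 at ZT8, 5.25, 5.39 and 5.48 at ZT12, and 5.14, 5.31 and 5.37 at ZT16 in controls. Among knockouts it read 5.28, 5.72 and 5.89 at ZT8, 5.61, 5.96 and 6.01 at ZT12, and 5.34, 5.39 and 5.50 at ZT16. It was called higher at ZT8 and ZT12, at 133% and 141% of control, apart from controls at ZT12, and was at 109% at ZT16, not called (limma adjusted p = 0.000105, 5.41e-06 and 0.228). Pcca, a subunit of propionyl-CoA carboxylase, read 1.71, 1.97 and 2.12 at ZT8, 1.5, 1.75 and 2.00 at ZT12, and 1.51, 1.78 and 2.11 at ZT16 in controls. Knockouts read 1.04, 1.42 and 1.87 at ZT8, 1.20, 1.42 and 1.5 at ZT12, and 0.99, 1.16 and 1.56 at ZT16. Pcca was at 70% of control at ZT8, 76% at ZT12 and 66.3% at ZT16 (limma adjusted p = 0.000629, 0.00548 and 0.000103), and its partner Pccb was called lower at ZT16 (70.6%). Aldh6a1, methylmalonate semialdehyde dehydrogenase of valine breakdown, read 5.60, 5.71 and 5.79 at ZT8, 5.64, 5.77 and 5.86 at ZT12, and 5.66, 5.78 and 5.99 at ZT16 in controls. It read 5.16, 5.45 and 5.84 at ZT8, 5.46, 5.62 and 5.66 at ZT12, and 5.30, 5.42 and 5.60 at ZT16 in knockouts. It was called lower each time, at 84.7% of control at ZT8, 87.6% at ZT12 and 76.4% at ZT16 (limma adjusted p = 0.0157, 0.0458 and 0.000173). The ZT12 call was lost in 6 of 12 other settings, and the ZT8 call in the fit of ZT8 arrays alone and without ZT8 knockout replicate 3. Mccc1 was called lower at ZT16 and Mccc2 at ZT8, subunits of methylcrotonyl-CoA carboxylase, and the Mccc2 call was not given without that replicate. Ivd and Bcat2, of leucine breakdown and branched-chain transamination, were not called by their brightest probes in the fit of all arrays. The dimmest Ivd probe was called lower at ZT8 and ZT16 (log2 -0.39 and -0.50; limma adjusted p = 0.019 and 0.0027). Another dimmer Ivd probe was called at no time.

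Of the 4 histidine enzymes none was called at ZT8 by its brightest probe, while at ZT16 Hal and Amdhd1 were higher and Uroc1 and Ftcd lower. Hal, histidase, starts the route. It read 5.68, 5.91 and 6.00 at ZT8, 5.21, 5.40 and 5.85 at ZT12, and 5.38, 5.53 and 5.93 at ZT16 in controls. In knockouts it read 5.48, 6.03 and 6.40 at ZT8, 5.70, 6.14 and 6.76 at ZT12, and 6.34, 6.74 and 7.10 at ZT16, apart from controls at ZT16. Hal was at 108% of control at ZT8, 162% at ZT12 and 215% at ZT16 (log2 0.12 at ZT8, 0.70 at ZT12 and 1.1 at ZT16, each SE 0.15; limma adjusted p = 0.595, 0.00054 and 1.20e-06). Amdhd1, imidazolonepropionase, acts after Uroc1, and on chromosome 10 it neighbours Hal with no coding gene between. Its control values, which fell between ZT8 and ZT16, were 4.21, 4.30 and 4.57 at ZT8, 3.19, 3.43 and 3.71 at ZT12, and 3.24, 3.48 and 3.84 at ZT16. Its knockout values were 4.35, 4.50 and 4.76 at ZT8, 3.55, 3.91 and 4.28 at ZT12, and 4.16, 4.63 and 4.91 at ZT16. Amdhd1 was at 111% of control at ZT8, 138% at ZT12 and 213% at ZT16 (limma adjusted p = 0.393, 0.00508 and 9.82e-08), apart from controls at ZT16. A dimmer Amdhd1 probe was called higher at every time (log2 0.43 at ZT8, 0.69 at ZT12 and 1.19 at ZT16; limma adjusted p = 0.0167 at ZT8). The lack of an Amdhd1 call at ZT8 thus rests on the brighter probe. Uroc1, urocanase, stands between Hal and Amdhd1 in the route. In controls it read 5.35, 5.47 and 5.62 at ZT8, 5.36, 5.58 and 5.75 at ZT12, and 5.70, 5.72 and 6.37 at ZT16. Uroc1 in knockouts read 5.12, 5.28 and 5.73 at ZT8, 4.92, 5.33 and 5.70 at ZT12, and 4.98, 5.13 and 5.38 at ZT16. It was called lower at ZT16 without overlap, at 60.4% of control (log2 -0.73 (SE 0.11), limma adjusted p = 7.59e-06). Ftcd, which hands the last carbon to folate, was called lower at ZT12 and ZT16, at 75.4% and 71.1%.

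Prodh, proline dehydrogenase of the inner mitochondrial membrane, had the largest mean fall of the 53. In controls it read 5.33, 5.65 and 6.13 at ZT8, 5.87, 6.36 and 6.83 at ZT12, and 6.05, 6.39 and 6.73 at ZT16. In knockouts it read 4.08, 4.73 and 5.27 at ZT8, 4.49, 4.97 and 5.43 at ZT12, and 4.15, 4.48 and 5.02 at ZT16, and no knockout array reached a control array of the same time. Prodh was at 46.7% of control at ZT8, 39.9% at ZT12 and 28.4% at ZT16 (log2 -1.1 at ZT8, -1.33 at ZT12 and -1.82 at ZT16, each SE 0.19; limma adjusted p = 3.26e-05, 1.49e-06 and 6.05e-09). Prodh2, the hydroxyproline dehydrogenase, read 5.17, 5.24 and 5.48 at ZT8, 5.19, 5.41 and 5.57 at ZT12, and 5.42, 5.56 and 5.84 at ZT16 in controls. It read 4.68, 4.97 and 5.26 at ZT8, 4.91, 5.02 and 5.08 at ZT12, and 4.76, 4.92 and 5.05 at ZT16 in knockouts, apart at ZT12 and ZT16. It was lower at all 3 times, at 80.4% of control at ZT8, 76.9% at ZT12 and 62.2% at ZT16 (limma adjusted p = 0.00558, 0.000862 and 2.63e-07). Aldh4a1, which oxidises the intermediates that follow both, was not called at any time (0.14 at ZT8, -0.02 at ZT12 and -0.18 at ZT16 on the log2 scale). Oat, ornithine aminotransferase, links ornithine to proline and glutamate and is rich in pericentral hepatocytes. Control values were 6.46, 6.87 and 7.10 at ZT8, 6.66, 6.96 and 7.18 at ZT12, and 6.17, 6.80 and 6.99 at ZT16. Knockout values were 6.63, 7.64 and 8.29 at ZT8, 6.49, 7.10 and 7.33 at ZT12, and 6.75, 7.04 and 7.65 at ZT16. Oat was called higher at ZT8 with overlapping groups, at 171% of control (log2 0.78 (SE 0.20), limma adjusted p = 0.00254), and was not called at ZT12 (0.12). The ZT8 overlap came from knockout replicate 3 at 6.63, since the other knockout arrays read 7.49 to 8.29. At ZT8 without that replicate, Oat differed by 0.98 on the log2 scale (limma adjusted p = 6.51e-05). At ZT16 it was at 0.43, not called (limma adjusted p = 0.0809), but 3 of 12 other settings called it: normexp, the authors' table and the fit without ZT8 knockout replicate 3 (limma adjusted p = 0.0476, over all settings 0.0116 to 0.165).

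Of 8 methionine and cysteine members, 1, 2 and 3 were higher and 2, 2 and 2 lower at the 3 times. In the methionine cycle, Mat1a, which makes S-adenosylmethionine, was higher at all 3 times (log2 0.50 at ZT8, 0.45 at ZT12 and 0.45 at ZT16; limma adjusted p = 0.011, 0.0186 and 0.0179), while Gnmt, which uses it to methylate glycine, was not called. Ahcy, which splits S-adenosylhomocysteine, read 1.66, 1.78 and 2.01 at ZT8, 2.03, 2.35 and 2.63 at ZT12, and 2.44, 2.77 and 3.13 at ZT16 in controls. Knockouts read 1.38, 2.13 and 2.31 at ZT8, 1.97, 2.59 and 2.86 at ZT12, and 2.17, 2.36 and 2.46 at ZT16. Ahcy was called lower at ZT16 (log2 -0.44 (SE 0.14), limma adjusted p = 0.0154), and at ZT8 it was higher in the fit without ZT8 knockout replicate 3 (log2 0.37, limma adjusted p = 0.0258), against 0.23, not called, with it. Bhmt, which remethylates homocysteine with betaine, read 8.45, 8.75 and 8.98 at ZT8, 7.99, 8.65 and 8.98 at ZT12, and 8.87, 8.99 and 9.45 at ZT16 in controls. Knockout arrays read 7.84, 8.23 and 8.64 at ZT8, 5.34, 6.52 and 7.29 at ZT12, and 7.27, 8.04 and 8.52 at ZT16, below all controls at ZT12 and ZT16. Bhmt was at 69.1% of control at ZT8, 26.2% at ZT12 and 46.1% at ZT16 (log2 -0.53 at ZT8, -1.93 at ZT12 and -1.12 at ZT16, each SE 0.22; limma adjusted p = 0.0628, 3.94e-08 and 0.000187), and the ZT12 value was the lowest ratio among all members and times. Both dimmer Bhmt probes were called lower at ZT8 as well (log2 -0.75 and -1.01; limma adjusted p = 0.0443 and 0.0402). The dimmest of them was well above background on 28 of 36 arrays. For the brightest probe or the probes averaged, 3 of 12 other settings called Bhmt lower at ZT8. Homocysteine leaves the cycle through Cbs, cystathionine beta-synthase. Cbs read 7.06, 7.27 and 7.33 at ZT8, 6.38, 6.49 and 6.65 at ZT12, and 6.49, 6.64 and 6.75 at ZT16 in controls. Knockouts had Cbs at 6.77, 6.98 and 7.57 at ZT8, 6.20, 6.65 and 7.0 at ZT12, and 7.26, 7.43 and 7.53 at ZT16. It was called higher at ZT16 without overlap, at 170% of control (log2 0.77 (SE 0.11), limma adjusted p = 2.01e-06), and was at -0.17 at ZT8, not called, but called lower there without ZT8 knockout replicate 3 (log2 -0.28, limma adjusted p = 0.0313). Cth, cystathionine gamma-lyase, was higher without overlap at ZT12 and ZT16, at 177% and 215%. Of cysteine's own breakdown, Csad, cysteine sulfinate decarboxylase of taurine synthesis, read 4.98, 5.39 and 5.81 at ZT8, 4.49, 5.20 and 5.71 at ZT12, and 4.52, 5.10 and 5.63 at ZT16 in controls. Its knockout values were 3.62, 4.09 and 4.62 at ZT8, 3.69, 4.15 and 4.54 at ZT12, and 3.79, 4.69 and 5.29 at ZT16. Csad was lower at ZT8, without overlap, and at ZT12, at 38.6% and 51.2% of control and was at 70.8% at ZT16, not called (limma adjusted p = 2.26e-05, 0.00115 and 0.0849). A much dimmer Csad probe gave -0.21, -0.25 and -0.46 and was called lower at ZT16 alone (limma adjusted p = 0.0198). With probes averaged, Csad was also called lower at ZT16 (limma adjusted p = 0.0282). The time of the Csad difference thus depends in part on the probe. Cdo1, cysteine dioxygenase, was called lower at ZT8 (log2 -0.49 (SE 0.11)).

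Aass, the bifunctional enzyme that opens lysine breakdown, read 5.99, 6.03 and 6.09 at ZT8, 6.00, 6.25 and 6.56 at ZT12, and 6.24, 6.49 and 6.88 at ZT16 in controls. In knockouts it read 6.55, 6.75 and 6.94 at ZT8, 6.43, 6.87 and 7.40 at ZT12, and 6.21, 6.63 and 7.72 at ZT16. It was called higher at ZT8 without overlap and at ZT12 with overlap, at 162% and 154% of control, and was at 113% at ZT16, not called (limma adjusted p = 0.00165, 0.00369 and 0.445).

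Whether the genotype difference itself changed between times was tested by limma's moderated F test, and 12 of 53 members passed it, against 8.45% of all features and 13.0% of bright features. Between ZT8 and ZT16 the difference moved upward for Hal (0.98 on the log2 scale; F test adjusted p = 0.0108), Amdhd1 (0.94; 0.00375), Cbs (0.93; 0.000655) and Amt (0.76; 0.00214). It moved downward for Afmid (-1.06; 0.000931), Asl (-0.95; 0.0221), Ahcy (-0.67; 0.048), Uroc1 (-0.62; 0.0229) and Gcsh (-0.39; 0.00426). Gpt also passed the pairwise ZT16 against ZT8 test (-0.49) but not the F test (adjusted p = 0.0879). The downward step of Asl rests on its brighter probe, since the dimmer one went from -0.42 at ZT8 to 0.41 at ZT16, and Asl lost the F test with probes averaged. Bhmt, Sds and Bckdhb passed the F test without a called ZT16 to ZT8 step. The Bhmt difference deepened between ZT8 and ZT12 by -1.40 on the log2 scale (SE 0.32, limma adjusted p = 0.0216). In all, 10 members differed between ZT16 and ZT8, 4 upward and 6 downward, against 9.76% of all features, 1, downward, between ZT12 and ZT8 against 1.24% in either direction and 0.659% downward, and 3 between ZT16 and ZT12 (Afmid, Amt and Cbs) against 1.89%. Without ZT8 knockout replicate 3 these counts were 18, 4 and 5, and the shares of all features in that fit were 14.2%, 4.06% and 2.86%. In that fit Gpt, Oat and Prodh2 also passed the F test (adjusted p = 0.0376, 0.0438 and 0.0276, against 0.0879, 0.303 and 0.101 with it), as did 13% of all features. Afmid, Amdhd1, Amt, Cbs and Hal passed the F test under all 11 other settings, and each of the remaining 7 lost it under 1 to 5, with Bckdhb reaching adjusted p values of 0.000801 to 0.108 and Asl 0.0085 to 0.358.

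**Figure D3:**
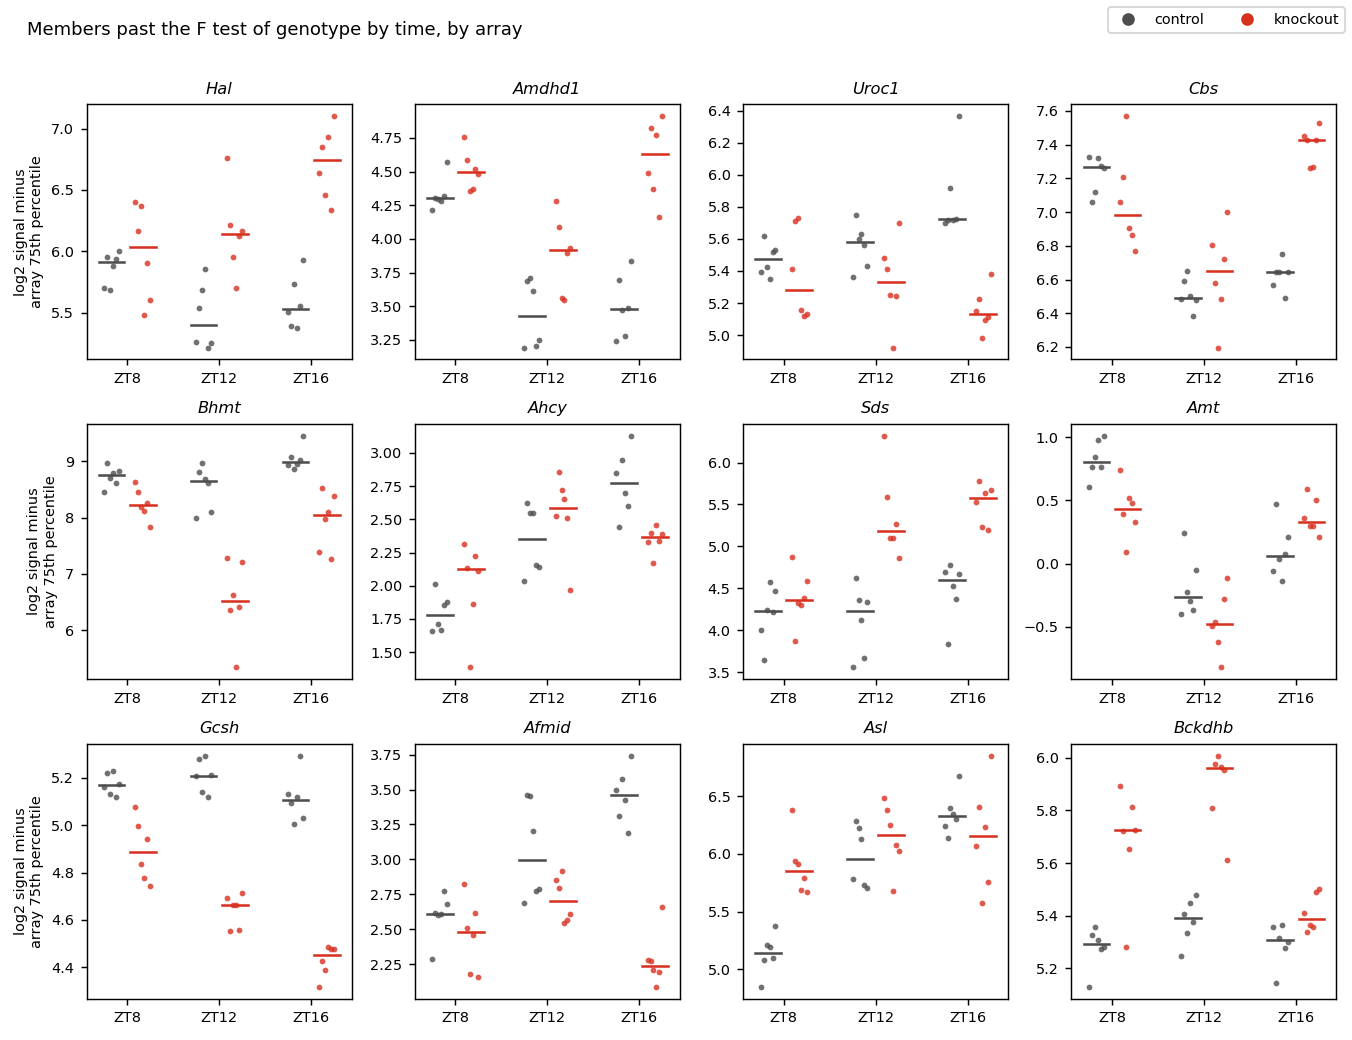
Log2 signal minus the array's 75th percentile for the 12 members past the F test of genotype by time, each point 1 array, bars the median of 6 arrays, grey controls and red knockouts, with a separate axis for each gene. Hal, Amdhd1 and Cbs overlap at ZT8 and are apart at ZT16, Gcsh falls further below controls from ZT8 to ZT16, and the Bhmt gap is widest at ZT12.

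Within genotypes, members also changed with time of day. From ZT8 to ZT16, 22 members were called in controls, 17 higher and 5 lower, against 26.6% of all features and 33.5% of bright features. The largest were Asl (1.23, SE 0.16), Tat (1.01, SE 0.17) and Agxt (-0.99, SE 0.21). In knockouts 20 were called, 13 higher and 7 lower, against 28.8% of all features. Tat rose there too (0.83), while Asl (0.27) and Agxt (-0.35) were not called. Both genotypes were called for 8 members, 7 of them in the same direction, and the exception was Cbs, which fell by 0.60 in controls and rose by 0.33 in knockouts. Called in controls alone were 14 members and in knockouts alone 12, and for 19 neither was called. A call in 1 genotype alone shows no difference between them, and the F test above is the test of that. In controls 13 members were called between ZT8 and ZT12 (against 14.8% of all features) and 2, Gldc and Bckdha, between ZT12 and ZT16 (against 3.63%). In knockouts 14 were called between ZT8 and ZT12 (against 13.2%) and 16 between ZT12 and ZT16 (against 12.6%). In a fit of the knockout ZT8 and ZT12 arrays alone the first of these counts was 3, against 2.7% of all features in that fit.

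**Figure D4:**
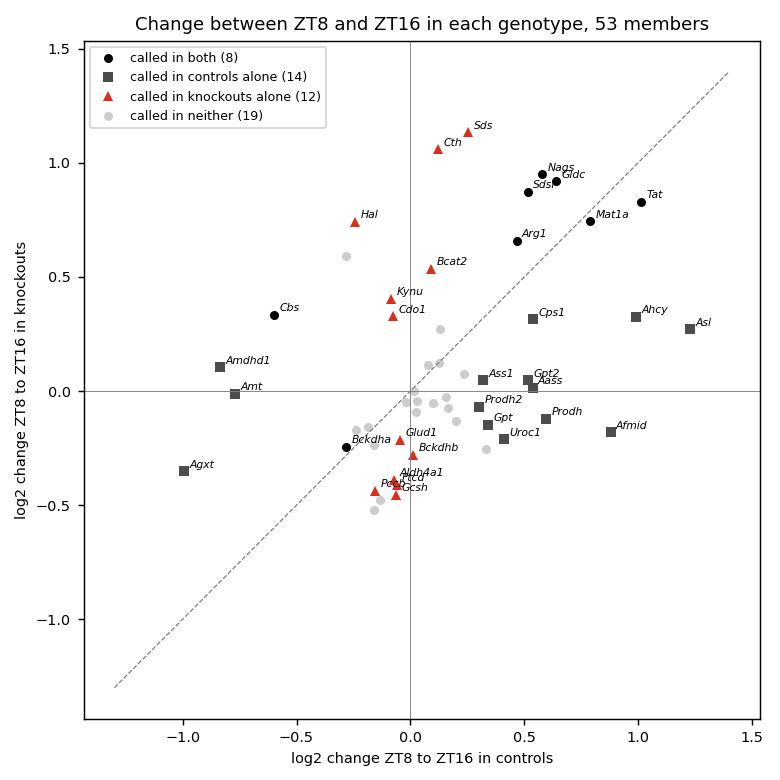
Log2 change from ZT8 to ZT16 in controls (horizontal) against that in knockouts (vertical) for the 53 members, with marks for where the change was called and a dashed line of equal change. Tat, Mat1a and Arg1 rose in both genotypes, Asl, Ahcy and Afmid lie far to the right and were called in controls alone, and Sds, Cth and Hal lie high and were called in knockouts alone.

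Partner enzymes of the same routes outside the 53 were measured for 46 of the 47 listed, with 7, 7 and 7 called higher and 22, 24 and 21 lower at ZT8, ZT12 and ZT16. Over all features 16.6%, 19.7% and 19.7% were called higher and 19.0%, 22.5% and 20.3% lower. The 3 with the smallest p were Acmsd, Mpst and Gstz1. Acmsd, which takes the tryptophan route away from NAD synthesis after Haao, was higher at all times (log2 2.96, 2.49 and 2.45; limma adjusted p up to 2.44e-09). Mpst, mercaptopyruvate sulfurtransferase of cysteine breakdown, was lower (-0.79, -1.24 and -1.23). Gstz1, the isomerase just before Fah in tyrosine breakdown, was lower as well (-0.69, -0.92 and -1.03; adjusted p by limma up to 2.96e-07).

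Markers of other cells were read beside these results, as the mean log2 level of each list on an array. Their calls stand beside 16.6%, 19.7% and 19.7% of all features higher and 19.0%, 22.5% and 20.3% lower at ZT8, ZT12 and ZT16. The 7 macrophage markers gave 2, 5 and 3 called higher and none lower at ZT8, ZT12 and ZT16, with array means of 1.18 to 3.10 in controls and 1.82 to 3.99 in knockouts. The 6 endothelial markers gave 0, 5 and 4 higher (0.83 to 1.68 and 0.86 to 1.89), and the 7 stellate and fibroblast markers 0, 2 and 2 higher (0.17 to 1.26 and -0.15 to 1.74). Of 6 bile duct markers, 0, 0 and 1 were higher and 0, 1 and 0 lower. Of 4 lymphocyte markers measured, 2, 2 and 2 were higher and 1, 2 and 1 lower (-0.34 to 0.39 and -0.12 to 0.85). Of 3 red cell markers, 0, 2 and 2 were higher and 1, 1 and 1 lower, all 3 without overlap at ZT16 (4.63 to 6.49 and 3.52 to 5.94). The 2 pancreas markers measured went 1 in each direction at every time (-2.03 to -0.21 and -0.55 to 0.39), and of 4 fat markers 1, 2 and 1 were lower and none higher (-4.40 to -2.96 and -5.37 to -3.57). Hepatocyte markers (7 of 8 measured) were at 9.04 to 9.24 in controls and 8.58 to 9.13 in knockouts, with 0, 2 and 1 called higher and 2, 3 and 2 lower. The markers called lower at every time were Alb, at -0.41, -0.35 and -0.39, and Ttr, whose promoter drives Cre, at -1.12, -1.02 and -0.98. The 6 pericentral markers outside the set, 3, 3 and 4 of them lower, ran from 4.30 to 4.68 in controls and 2.97 to 4.17 in knockouts, and the 6 periportal ones, called in both directions, from 4.78 to 5.15 and 4.25 to 5.46. No marker list has a true zero on this scale, and the part of these cell types in the members' differences was not tested.

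Promoters, taken as the 250 bases before the start of a gene in RefSeq on build GRCm38.p6, were found for 42 of the 53 members. They were searched on both strands for TGACGTCA (the cyclic AMP response element), TGTTTAC (a forkhead motif), TTGCGCAA (a C/EBP motif) and TGTTCT (only part of a glucocorticoid receptor site). The first, the second and the third were in 0 of 42, against 1.77%, 3.54% and 0.185% of 27025 genes, and TGTTCT was in 4 of 42 (9.52%: Agxt, Bckdhb, Haao and Pccb) against 18.2%. The promoters of the member with the largest mean fall and of that with the largest mean rise among those in the table (Sds, with a larger rise, is not in it) are shown 5′ to 3′, with the motif match in capitals.
Prodh, chr16:18089191-18089440, minus strand: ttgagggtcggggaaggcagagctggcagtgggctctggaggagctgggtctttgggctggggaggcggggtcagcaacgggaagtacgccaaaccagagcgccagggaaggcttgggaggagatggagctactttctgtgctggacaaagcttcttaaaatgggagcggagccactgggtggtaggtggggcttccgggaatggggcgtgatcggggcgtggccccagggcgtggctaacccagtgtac
Agxt, chr1:93134990-93135239, plus strand: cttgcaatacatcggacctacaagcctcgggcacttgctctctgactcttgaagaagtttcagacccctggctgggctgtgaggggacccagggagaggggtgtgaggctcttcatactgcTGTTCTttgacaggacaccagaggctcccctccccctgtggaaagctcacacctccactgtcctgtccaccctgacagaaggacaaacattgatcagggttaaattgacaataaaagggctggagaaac
The Prodh promoter holds none of the 4 motifs, and that of Agxt holds TGTTCT with its first base 129 bases before the start. These matches describe letters in the window and no binding.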

How the data were processed

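RNA of 36 liver samples was measured on Agilent arrays with 1 dye (Cy3), from 200 ng of RNA each, per the labels. Per the file headers, the deposited spot values are intensity, extracted with Feature Extraction 10.10.1.1 (GE1_1010_Sep10), with the processed signal background subtracted and not normalized between arrays, and deposited spot flags are other values of 0 or 1. Positions are on build mm9. The authors' deposited table holds log2 values of 32801 probes whose sorted values are identical in all 36 columns (quantile normalized), its other steps being not given in the sources used here. It served as an alternative.

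From the log2 of each processed signal, the 75th percentile of all spots other than controls on that array was taken away. Outlier spots were left out and spots of a probe averaged. Of 34771 probes well above background on at least 6 arrays, 93 with a missing value on any array were not used. The brightest probe represented a gene. limma 3.58.1 (R 4.3.3) was fitted with 6 group means and wash batch (3 batches of 11, 12 and 13 arrays) as a fixed effect, with 28 residual and 2.25 prior degrees of freedom. P-values were Benjamini-Hochberg adjusted within each comparison. Arrays give no counts, and their number limits the precision. The fit was tested on simulated data.

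The members, lists and tests were chosen with earlier results of these data known. Named with levels are up to 3 members of each route with the smallest p in a genotype comparison, members past the F test, and the 3 with the largest called ZT8 to ZT16 change in controls. Of other lists, the 3 genes with the smallest p are named. Replicate numbers shared between groups were not taken as pairs in the main fit. Over 90 pairs of groups and numbers, the correlation of deviations ran from -0.34 to 0.20. Its median was -0.0051, against 0.0043 for arrays of different numbers. The labels number the samples of a group without naming animals, so p-values measure the spread between these samples. Alternatives covered background correction, normalization, probe filter, the authors' table, wash batch, slide, replicate block, groups fitted, probe averaging, array weights and leaving out ZT8 knockout replicate 3.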

Additional observations from a re-analysis of the deposited data

Results flagged for a closer look

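The genotype difference changed with time for the 12 members past the moderated F test. On the log2 scale, the difference at ZT16 minus that at ZT8 was above 0 for Amdhd1 (0.94), Amt (0.76), Cbs (0.93), Hal (0.98) and Sds (0.88). It was below 0 for Afmid (-1.06), Ahcy (-0.67), Asl (-0.95), Bckdhb (-0.29), Bhmt (-0.58), Gcsh (-0.39) and Uroc1 (-0.62). For Bckdhb, Bhmt and Sds this step alone was not called, and the F test covers all 3 times. The Asl value is that of its brighter probe, and the dimmer one went the other way, from -0.42 at ZT8 to 0.41 at ZT16.

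In 17 of 180 groups of 6 arrays, for the 30 members named with levels, the highest or lowest array was farther from the rest than Dixon's test allows at the 95% level. Chance flags about 1 in 20 groups, or 9 of 180, and 1 of the 17 fell on ZT8 knockout replicate 3. Aass read 7.72 on ZT16 knockout replicate 6, against 6.21 to 6.73 on the other 5. Afmid read 2.66 on ZT16 knockout replicate 6, against 2.09 to 2.28 on the other 5. Afmid read 2.29 on ZT8 control replicate 1, against 2.60 to 2.78 on the other 5. Agxt read 7.95 on ZT12 knockout replicate 1, against 6.51 to 6.99 on the other 5. Amdhd1 read 4.57 on ZT8 control replicate 6, against 4.21 to 4.32 on the other 5. Bckdhb read 5.13 on ZT8 control replicate 1, against 5.27 to 5.36 on the other 5. Bhmt read 9.45 on ZT16 control replicate 6, against 8.87 to 9.08 on the other 5. Glud1 read 7.56 on ZT12 control replicate 3, against 7.64 to 7.67 on the other 5. Glud1 read 7.59 on ZT8 control replicate 5, against 7.70 to 7.76 on the other 5. Haao read 5.29 on ZT8 knockout replicate 3, against 5.92 to 6.25 on the other 5. Hpd read 7.14 on ZT12 knockout replicate 6, against 7.59 to 7.82 on the other 5. Hpd read 7.40 on ZT16 knockout replicate 3, against 7.66 to 7.77 on the other 5. Nags read 1.87 on ZT16 knockout replicate 4, against 2.15 to 2.28 on the other 5. Pcca read 1.56 on ZT16 knockout replicate 5, against 0.99 to 1.19 on the other 5. Sdsl read 2.85 on ZT16 control replicate 2, against 3.04 to 3.09 on the other 5. Tdo2 read 4.94 on ZT12 knockout replicate 6, against 5.75 to 6.14 on the other 5. Uroc1 read 6.37 on ZT16 control replicate 6, against 5.70 to 5.92 on the other 5. No cause of these was tested.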

How the results depend on the processing

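The counts of members called at each time between genotypes stayed within 1.5 times their values under all 12 other settings, at 25 to 34 for ZT8, 28 to 36 for ZT12 and 33 to 41 for ZT16. Of 1248 values under other settings (genotype differences of the named members and Insr, and F tests), 1163 kept direction and call, 59 kept direction and lost the call, 23 gained it and 3 reversed. Reversed were Asl at ZT16 with all probes averaged (0.10), and, under quantile normalization, Hal at ZT8 (-0.020) and Oat at ZT12 (-0.0027), none of them called. Counts over time moved more. Between ZT12 and ZT16 in controls, 2 members became 4 under quantile normalization, 0 without the probe filter, with slide as a block or with only the groups compared, and 1 with probes averaged. Between ZT8 and ZT12 in knockouts 14 became 3, and between ZT8 and ZT16 20 became 13, with only the groups compared. The genotype difference at ZT12 minus that at ZT8 (1 member) became 2 under quantile normalization, 3 in the authors' table, 0 with only the groups compared or with probes averaged, and 4 with array weights or without ZT8 knockout replicate 3. At ZT16 minus ZT12, 3 became 6 with array weights and 5 without that replicate, and at ZT16 minus ZT8, 10 became 23 and 18. The F test count of 12 became 7 with probes averaged and 19 with array weights, and the fit of only the groups compared gives no F test. Of all features, 3.47% were called between ZT12 and ZT16 in controls under quantile normalization. Shares are given above for the fit without ZT8 knockout replicate 3 and for the count of 3 in knockouts. The other counts of this section have no such share beside them. Those counts do not show a shift of the members apart from one of all features. The causes of these changes were not tested. With the replicate number as a block, the paired fit gave 28, 32 and 35 members at ZT8, ZT12 and ZT16, 9 past the F test and 1 in controls between ZT12 and ZT16. Of 90 same-number correlations 14 exceeded 0.1, and 8 arrays were closest to their own number. The labels name no source shared by samples of the same number, and these values cannot exclude one. Normexp shifted the split of all features toward lower calls, with a median log2 difference of -0.086 at ZT12, while 11 members were higher and 21 lower there.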

Other observations

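Transporters and regulators of these routes, from lists written with earlier results known, moved in both directions. Of 12 amino acid transporters of liver, 3, 5 and 1 were called higher and 3, 3 and 4 lower at ZT8, ZT12 and ZT16. Over all features the shares were 16.6%, 19.7% and 19.7% higher and 19.0%, 22.5% and 20.3% lower. Slc7a2, a cationic amino acid carrier that brings in arginine, was higher at all times (log2 1.23, 1.24 and 1.31; limma adjusted p up to 8.01e-08). Slc1a4, a carrier of serine and alanine, was higher at ZT8 and ZT12 (1.27 and 1.33) and at 0.33 at ZT16, not called. Slc6a13, a carrier of taurine and related compounds, was lower each time (-0.74, -0.90 and -0.66).

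Of 10 regulators known for these genes, 1, 2 and 1 were called higher and 4, 5 and 6 lower, beside the same shares of all features. Ppargc1a, a coactivator of fasting genes, was higher at all times (log2 2.18, 2.20 and 1.88; limma adjusted p up to 3.65e-09). Nr3c1, the glucocorticoid receptor, was lower (-0.38, -0.56 and -0.67), as was Creb3l3, a membrane-bound transcription factor of hepatocytes (-0.43, -0.97 and -0.89). No relation between a regulator and the members was tested.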
